A study of Mus musculus with 18 samples.

Results

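A set of 10 genes (of 18193 measured) was followed across every sample because their main signal was lower in SOD1 mutant than in wildtype mice in whole ventral cord and in motor neurons of both nuclei studied. They are Psmd6, Arih1, Ermp1, Cnot7, Gtf3c3, Gnl3l, Ep400, Ccni, Far1 and Sbsn. The genotype difference of 1 probe set per gene, the one with the highest mean over the 18 arrays (below, the brightest), chose them, so these differences are a description and carry no test. All 36 probe sets that the platform annotation ties to these symbols alone, of 45037 on the array, were then examined: 10 brightest ones and 26 others. The others were not used in choosing the genes, though they were measured on the same arrays.

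RNA was measured on Affymetrix mouse expression arrays in 18 samples, 3 in each of 6 groups. The groups were SOD1 mutant and wildtype ventral spinal cord tissue, SOD1 mutant and wildtype spinal motor neurons, and SOD1 mutant and wildtype facial motor neurons, from a motor nucleus of the brainstem. All samples, tissue included, went through linear amplification from a T7 promoter. SOD1 encodes the cytosolic superoxide dismutase, and its mutation is a known cause of the motor neuron disease amyotrophic lateral sclerosis. The labels name neither the SOD1 allele nor the strain, sex, age or batch, leave the tag D60 in the titles unexplained, and do not tie samples to animals, so every p-value measures only the spread between these samples. In tissue, fewer cells of a type and less RNA per cell cannot be told apart.

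The genes work in several housekeeping systems. The 26S proteasome takes apart proteins that carry ubiquitin chains: Psmd6 is a lid subunit of its regulatory particle, and Arih1 is a ubiquitin ligase that works together with cullin ligases. Cnot7 is a deadenylase of the CCR4-NOT complex, which shortens poly(A) tails of mRNA, Gtf3c3 is a subunit of the factor TFIIIC that recruits RNA polymerase III to tRNA genes, and Gnl3l is a nucleolar GTPase of the nucleostemin family. Ep400 is the large ATPase of the TIP60 chromatin complex, Ccni an atypical cyclin abundant in cells that no longer divide, Far1 the peroxisomal reductase that makes fatty alcohols for ether lipids, Ermp1 a metallopeptidase of the endoplasmic reticulum, and Sbsn (suprabasin) a secreted protein best known from the upper layers of the epidermis. Protein turnover and RNA handling are both much studied in SOD1 disease.

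The genes lie on 8 chromosomes in the mouse assembly GRCm38.p6: Ccni and Ep400 on chromosome 5, Sbsn and Far1 on chromosome 7, and the other 6 on chromosomes 1, 8, 9, 14, 19 and X. A RefSeq promoter entry was matched for 8 of the 10, all but Cnot7 and Gnl3l. The 250 bases upstream of the start are shown for Psmd6, the proteasome gene described first, and for Sbsn, which had the largest genotype difference among the brightest probe sets in every kind of sample. Each is written 5′ to 3′ on the strand of its gene, Psmd6 from chr14:14120946-14121195 (minus strand) and Sbsn from chr7:30751221-30751470 (plus strand), with any TATAAA or CCAAT or GGGCGG on either strand in capitals.
Psmd6: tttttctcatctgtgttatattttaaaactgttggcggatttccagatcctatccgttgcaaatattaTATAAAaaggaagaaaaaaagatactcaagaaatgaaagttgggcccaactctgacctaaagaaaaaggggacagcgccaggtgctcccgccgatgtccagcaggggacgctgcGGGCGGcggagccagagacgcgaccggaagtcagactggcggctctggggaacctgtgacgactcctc
Sbsn: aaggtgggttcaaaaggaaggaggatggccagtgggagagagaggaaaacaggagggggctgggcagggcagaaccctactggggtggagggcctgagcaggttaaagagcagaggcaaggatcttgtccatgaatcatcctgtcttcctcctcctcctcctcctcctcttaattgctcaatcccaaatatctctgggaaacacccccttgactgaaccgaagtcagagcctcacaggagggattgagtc
The Psmd6 stretch holds a TATAAA and a GGGCGG, and the Sbsn stretch holds none of the 3 motifs. TATAAA was found upstream of 1 of the 8 genes (Psmd6) and in 12.4% of 32851 RefSeq promoter windows of the same length. CCAAT was found upstream of 2 of the 8 (Ermp1 and Far1) and in 33.8% of all windows, and GGGCGG, the GC box, upstream of 4 of the 8 (Psmd6, Ep400, Arih1 and Far1) and in 32.7%. A match describes letters only and is no site of binding. Probe sequences were not used here, so where each probe set lies on its transcript is not given.

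The genotype labels were set against Sod1 itself. Its probe set 1451124_at gave higher values in all 3 mutant arrays than in any wildtype array in each kind of sample, with means of 16.49 in mutant and 16.10 in wildtype tissue, 16.85 in mutant and 16.40 in wildtype spinal motor neurons, and 16.75 in mutant and 16.51 in wildtype facial motor neurons, on the scale of log2(intensity + 16) after quantile normalization that all levels below use. None of these differences passed limma at 0.05 over all probe sets (adjusted p = 0.222, 0.524 and 0.327). Another Sod1 probe set, 1435304_at, was lower in mutants without overlap in all 3 kinds, with differences of -0.44 in tissue, -1.66 in spinal cells and -0.95 in facial cells. Of 7 motor neuron markers the summed level was 17.5 to 17.9 in motor neurons and 16.5 to 16.7 in tissue. By genotype it was 16.48 to 16.57 in mutant and 16.62 to 16.68 in wildtype tissue, lower in mutants without overlap, 17.89 to 17.91 in mutant and 17.51 to 17.89 in wildtype spinal cells, where the groups all but touched, and overlapped in facial cells. The mean was nevertheless higher in mutants for 4 of the 7 in tissue, and for 6 of the 7 in spinal and in facial cells. Most of the tissue sum is Nefh, the brightest of them, at 16.33 in mutants and 16.51 in wildtype. Mnx1, a marker of spinal motor neurons, averaged 12.46 in mutant and 12.25 in wildtype spinal cells, and 5.71 in mutant and 5.17 in wildtype facial cells. Within a group, arrays correlated at 0.959 to 0.970 in tissue and at 0.879 to 0.929 in motor neurons.

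The actin ratio was apart between genotypes in both motor neuron kinds, and the summed markers of microglia and of astrocytes were higher in mutants without overlap in tissue and spinal cells and overlapped in facial cells. These values stand beside every difference below. The actin ratio, the signal at the 3′ end of the beta-actin control divided by that at its 5′ end, a sign of how far amplified RNA reaches to the 5′ end, was 25.3 to 39.1 in mutant and 40.9 to 56.9 in wildtype spinal cells, 26.6 to 59.0 in mutant and 59.7 to 74.4 in wildtype facial cells, and 1.56 to 1.78 over all tissue arrays. The same ratio of the Gapdh control overlapped between genotypes in both motor neuron kinds. It was 20.5 to 21.7 in mutant and 19.1 to 49.7 in wildtype spinal cells, and 14.5 to 21.5 in mutant and 20.3 to 27.3 in wildtype facial cells. The summed level of 5 microglia markers was 15.8 to 15.9 in mutant and 15.3 to 15.4 in wildtype tissue, 14.9 to 15.2 in mutant and 12.2 to 14.1 in wildtype spinal cells, and 13.2 to 13.5 in mutant and 12.7 to 14.0 in wildtype facial cells. The mean was higher in mutants for 5 of the 5 in tissue and in spinal cells, and for 2 of the 5 in facial cells. The sum of 5 astrocyte markers was 17.50 to 17.70 in mutant and 17.27 to 17.32 in wildtype tissue, 15.4 to 15.8 in mutant and 14.7 to 15.2 in wildtype spinal cells, and 14.5 to 15.1 in mutant and 13.7 to 14.7 in wildtype facial cells. Of these astrocyte markers 4 of 5 had a higher mean in mutants in tissue, and 5 of 5 in spinal and in facial cells. In facial cells the sum of 3 endothelial markers was lower in mutants without overlap (10.92 to 11.49 in mutants and 11.58 to 11.93 in wildtype), as was Pmp22, the only Schwann cell marker measured (15.83 to 16.05 in mutants and 16.23 to 16.37 in wildtype). With the actin ratio in the fit, all 30 genotype differences of the brightest probe sets kept their sign, and 2 moved by over 1.5 times, Psmd6 to -0.65 and Gtf3c3 to -0.55 in facial cells. The part of these cell types in the differences, and that of the motor neuron markers in tissue, was not tested.

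Among the 10 brightest probe sets, mutants were lower without overlap of the groups in 8 in tissue, 9 in spinal cells and 10 in facial cells, and in 7 in all 3 kinds. Over all 45037 probe sets, mutants were lower without overlap in 6.62%, 6.38% and 8.52%, higher without overlap in 5.86%, 5.8% and 9.27%, and lower in all 3 kinds in 0.0999% (45 probe sets, of 39 named genes). Since the genes were picked on these differences, nothing is read from the contrast between these shares. The median difference of the 10 was -0.38 in tissue, -0.94 in spinal cells and -0.88 in facial cells, beside medians of all probe sets of -0.01, -0.01 and 0.01. How far the genotype difference itself varied between kinds of sample was not tested.

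**Figure D1:**
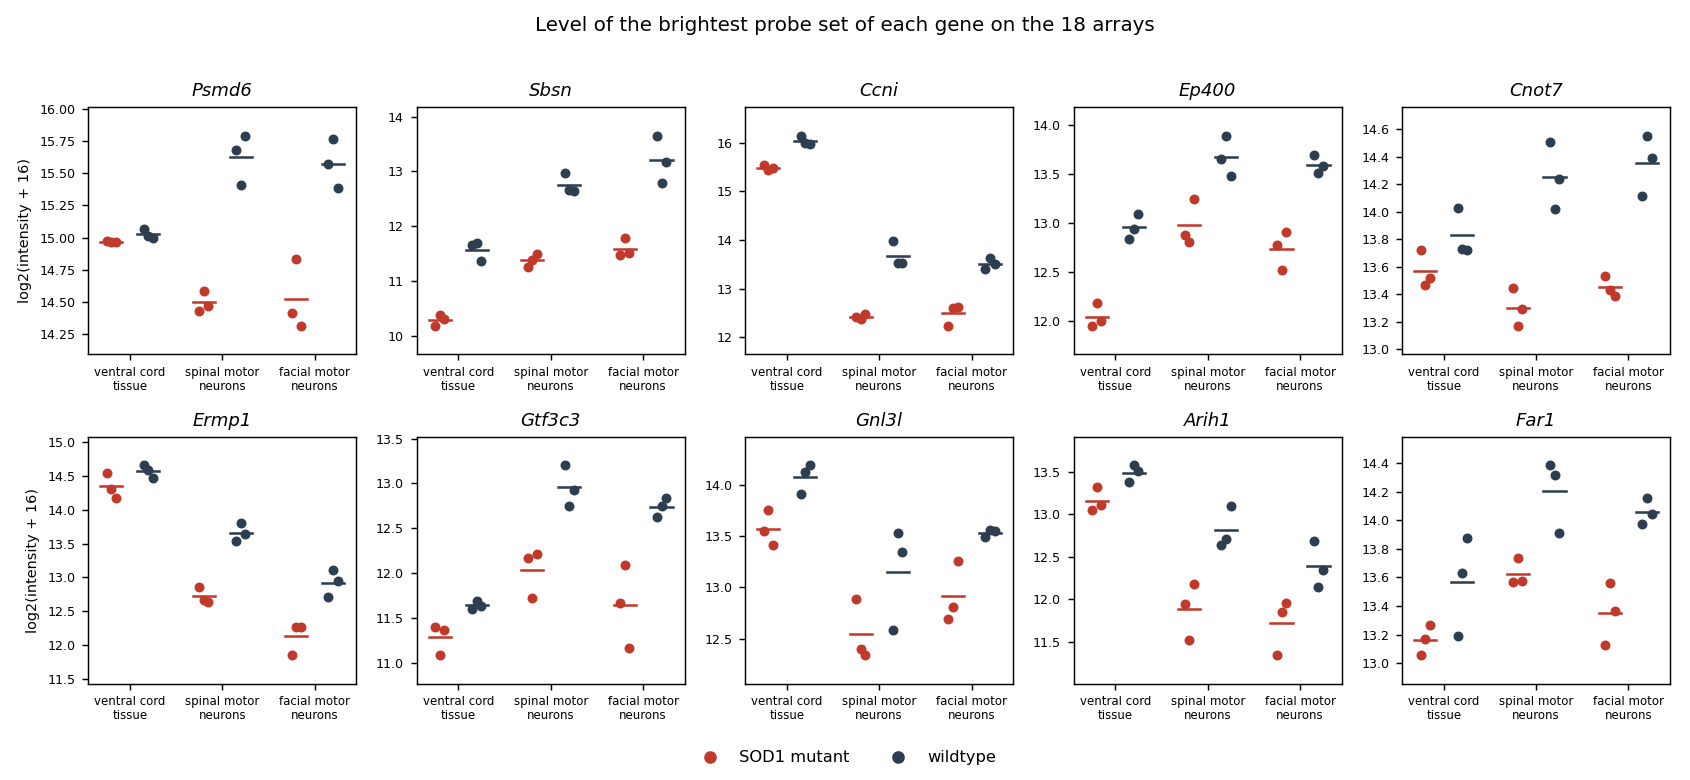
Level of the brightest probe set of each gene on every array, as log2(intensity + 16) after quantile normalization. Points are arrays, bars are means of 3, SOD1 mutants in red left of wildtype in dark blue, and each panel has its own vertical scale. The mutant points lie below the wildtype points in all 3 kinds of sample for 7 genes, and overlap them in tissue for Ermp1 and Far1 and in spinal motor neurons for Gnl3l.

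Psmd6 was nearly level in tissue and far lower in mutant motor neurons. Its brightest probe set, 1423697_at, read 14.97, 14.97 and 14.97 in mutant tissue, against 15.07, 15.01 and 14.99 in wildtype tissue. In spinal motor neurons it read 14.44, 14.59 and 14.47 in mutants, against 15.68, 15.41 and 15.79 in wildtype, a difference of -1.13 (SE 0.15, n = 3 each). In facial motor neurons it read 14.41, 14.83 and 14.32 in mutants, against 15.57, 15.76 and 15.39 in wildtype, a difference of -1.05 (SE 0.15), or -0.65 with the actin ratio in the fit. The groups did not overlap in any kind, but the tissue difference was only -0.05 (SE 0.07), the smallest among the 10 genes. The other Psmd6 probe set, 1423696_a_at, which the annotation derives from the same transcript record, did not follow. It read 15.28, 15.47 and 15.50 in mutant spinal cells, against 15.65, 15.27 and 15.57 in wildtype, and 15.12, 15.57 and 15.36 in mutant facial cells, against 15.42, 15.58 and 15.59 in wildtype, with overlap in both and differences of -0.08 and -0.18.

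Arih1 was lower in mutants in each kind on its brightest probe set, 1436498_at. It read 13.05, 13.32 and 13.11 in mutant and 13.38, 13.58 and 13.51 in wildtype tissue, a difference of -0.33 (SE 0.10). In spinal cells it read 11.94, 11.52 and 12.18 in mutants and 12.64, 12.71 and 13.10 in wildtype, a difference of -0.93 (SE 0.23). In facial cells it read 11.34, 11.85 and 11.95 in mutants and 12.69, 12.15 and 12.34 in wildtype, a difference of -0.68 (SE 0.22). No mutant array reached the lowest wildtype array. The annotation holds 5 other Arih1 probe sets, of which 1459397_at and 1460090_at averaged below the 40th percentile of all probe sets, a level close to background. The 3 brighter ones, 1427188_at, 1427189_at and 1441022_at, differed by -0.00, -0.14 and -0.07 in tissue, 0.38, -0.45 and -0.83 in spinal cells, and 0.16, 1.005 and 0.59 in facial cells. None of these 3 was below zero in every kind.

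Ermp1 overlapped between genotypes in tissue. Its probe set 1433702_at read 14.54, 14.31 and 14.18 in mutant and 14.66, 14.58 and 14.47 in wildtype tissue, a difference of -0.23 (SE 0.10). In spinal cells it read 12.85, 12.67 and 12.64 in mutants and 13.53, 13.80 and 13.63 in wildtype, a difference of -0.94 (SE 0.18), and in facial cells 11.85, 12.27 and 12.26 in mutants and 12.71, 13.11 and 12.95 in wildtype, a difference of -0.79 (SE 0.18). Both motor neuron comparisons were free of overlap. The other probe sets went elsewhere: 1460599_at differed by -0.13, 0.48 and 0.40 in tissue, spinal and facial cells. Probe set 1446228_at read 9.24, 9.89 and 8.73 in mutant spinal cells, against 6.70, 9.005 and 4.92 in wildtype. That difference of 2.42 (SE 0.95) was the largest genotype difference of the 36 probe sets, and the groups overlapped.

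Cnot7 stood lower in mutants by a small margin in tissue and by a wider one in motor neurons. Its probe set 1423641_s_at read 13.72, 13.47 and 13.52 in mutant tissue, against 14.03, 13.73 and 13.72 in wildtype, where the highest mutant and the lowest wildtype array all but touched. It read 13.44, 13.17 and 13.29 in mutant spinal cells, against 14.51, 14.02 and 14.24 in wildtype, and 13.53, 13.43 and 13.39 in mutant facial cells, against 14.12, 14.55 and 14.39 in wildtype. The differences were -0.26 (SE 0.11), -0.95 (SE 0.18) and -0.90 (SE 0.14). Probe set 1460665_a_at was also lower in mutant spinal cells without overlap, with a difference of -0.90 (SE 0.56), but stood at 0.62 in facial cells (SE 0.60). Probe set 1430519_a_at stood at -0.12, -0.61 and 0.11 in tissue, spinal and facial cells, with overlap in each.

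Gtf3c3 has 1 probe set here, 1454765_at, so no second measurement of the gene bears on it. It read 11.40, 11.08 and 11.37 in mutant and 11.60, 11.69 and 11.63 in wildtype tissue, 12.17, 11.72 and 12.21 in mutant and 13.20, 12.74 and 12.92 in wildtype spinal cells, and 11.66, 12.09 and 11.17 in mutant and 12.63, 12.75 and 12.84 in wildtype facial cells. The groups were apart in each kind, with differences of -0.36 (SE 0.11), -0.92 (SE 0.22) and -1.10 (SE 0.23), the last of which was -0.55 with the actin ratio in the fit. Gnl3l overlapped between genotypes in spinal cells, where 1439009_at read 12.89, 12.40 and 12.34 in mutants and 12.58, 13.53 and 13.34 in wildtype: the first mutant array lay above the first wildtype array. In tissue it read 13.55, 13.75 and 13.41 in mutants and 13.90, 14.12 and 14.19 in wildtype, and in facial cells 12.69, 12.81 and 13.26 in mutants and 13.49, 13.56 and 13.55 in wildtype, with no overlap in either. Its differences were -0.50 (SE 0.11) in tissue, -0.61 (SE 0.26) in spinal and -0.61 (SE 0.17) in facial cells. The only other Gnl3l probe set, 1459225_at, was below the 40th percentile.

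Ep400 was lower in mutants in each kind. Its probe set 1447349_s_at read 11.95, 12.18 and 12.003 in mutant and 12.84, 12.93 and 13.10 in wildtype tissue, 12.88, 12.81 and 13.25 in mutant and 13.65, 13.89 and 13.48 in wildtype spinal cells, and 12.77, 12.52 and 12.91 in mutant and 13.70, 13.51 and 13.58 in wildtype facial cells. The groups stayed apart in each kind, with differences of -0.91 (SE 0.10), -0.70 (SE 0.19) and -0.86 (SE 0.15). Of 6 other Ep400 probe sets, 1449610_at and 1447712_x_at were below the 40th percentile. The 4 brighter ones, 1426860_at, 1437020_at, 1440751_at and 1453130_at, ranged from -0.29 to 0.72 in tissue, from -0.29 to 0.49 in spinal cells and from 0.11 to 1.06 in facial cells. Probe set 1437020_at was lower without overlap in mutant tissue (-0.29, SE 0.21) and stood at 1.06 in facial cells (SE 0.65).

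Ccni was lower in mutants without overlap on 1 of its 4 probe sets. Probe set 1416427_at read 15.54, 15.44 and 15.49 in mutant and 16.15, 16.004 and 15.99 in wildtype tissue, 12.41, 12.37 and 12.48 in mutant and 13.98, 13.52 and 13.53 in wildtype spinal cells, and 12.24, 12.61 and 12.62 in mutant and 13.41, 13.63 and 13.50 in wildtype facial cells. Mutants were lower without overlap in each, with differences of -0.56 (SE 0.07), -1.25 (SE 0.19) and -1.02 (SE 0.16). The annotation derives 2 further Ccni probe sets from the same transcript record. Of these, 1448334_a_at was higher without overlap in mutant facial cells, at 13.28, 13.65 and 13.81 in mutants and 13.04, 12.99 and 13.21 in wildtype, a difference of 0.50 (SE 0.16), and differed by 0.27 in tissue and 0.01 in spinal cells. Probe set 1448335_s_at read 10.98, 11.22 and 11.32 in mutant and 11.56, 11.12 and 11.28 in wildtype spinal cells, and its differences were 0.03, -0.15 and 0.08, all with overlap. The fourth, 1459602_at, overlapped in every kind.

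Far1 overlapped in tissue and was apart in both motor neuron kinds. Its probe set 1435315_s_at read 13.06, 13.17 and 13.27 in mutant and 13.19, 13.63 and 13.87 in wildtype tissue, a difference of -0.40 (SE 0.15). In spinal cells it read 13.57, 13.73 and 13.57 in mutants and 14.39, 14.32 and 13.91 in wildtype, a difference of -0.58 (SE 0.18), and in facial cells 13.13, 13.56 and 13.37 in mutants and 13.97, 14.15 and 14.05 in wildtype, a difference of -0.71 (SE 0.15). The 3 other Far1 probe sets above the 40th percentile, 1426369_at, 1426370_at and 1426371_at, stayed between -0.21 and 0.21 over the 3 kinds, and the fifth, 1453550_a_at, was below it.

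Among the brightest probe sets that of Sbsn had the largest difference in each kind, and Sbsn was the only gene with a second probe set whose mean was lower in mutants in all 3 kinds. Probe set 1459897_a_at read 10.19, 10.38 and 10.31 in mutant tissue, against 11.66, 11.70 and 11.36 in wildtype, 11.25, 11.39 and 11.49 in mutant spinal cells, against 12.96, 12.67 and 12.64 in wildtype, and 11.47, 11.78 and 11.52 in mutant facial cells, against 13.65, 12.78 and 13.16 in wildtype. These are differences of -1.28 (SE 0.13), -1.38 (SE 0.22) and -1.61 (SE 0.22), or 2.43-fold, 2.60-fold and 3.06-fold lower in mutants. Probe set 1439630_x_at read 10.38, 10.39 and 10.56 in mutant and 10.84, 10.96 and 10.66 in wildtype tissue, 11.90, 11.68 and 12.03 in mutant and 12.63, 12.32 and 12.01 in wildtype spinal cells, and 12.51, 12.16 and 11.95 in mutant and 13.22, 12.81 and 13.06 in wildtype facial cells. It was apart in tissue (-0.38, SE 0.13) and facial cells (-0.82, SE 0.19), and overlapped in spinal cells (-0.45, SE 0.23). The third, 1459898_at, was below the 40th percentile. The summed level of 5 keratinocyte markers was 12.13 to 12.35 in mutant and 12.10 to 12.37 in wildtype tissue, 12.33 to 12.80 in mutant and 12.59 to 13.67 in wildtype spinal cells, and 12.12 to 12.47 in mutant and 12.70 to 12.84 in wildtype facial cells, so that it too was lower in mutants without overlap in facial cells. The mean was nevertheless higher in mutants for 2 of these 5 markers in each kind, in facial cells Krt1 and Krt5. Krt10, the brightest of them, averaged 11.79 in mutant and 12.29 in wildtype facial cells. The part of keratinocytes in the Sbsn values was not tested. Of these markers Krt5 and Krt14 averaged at or below 8.25 in every group.

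**Figure D2:**
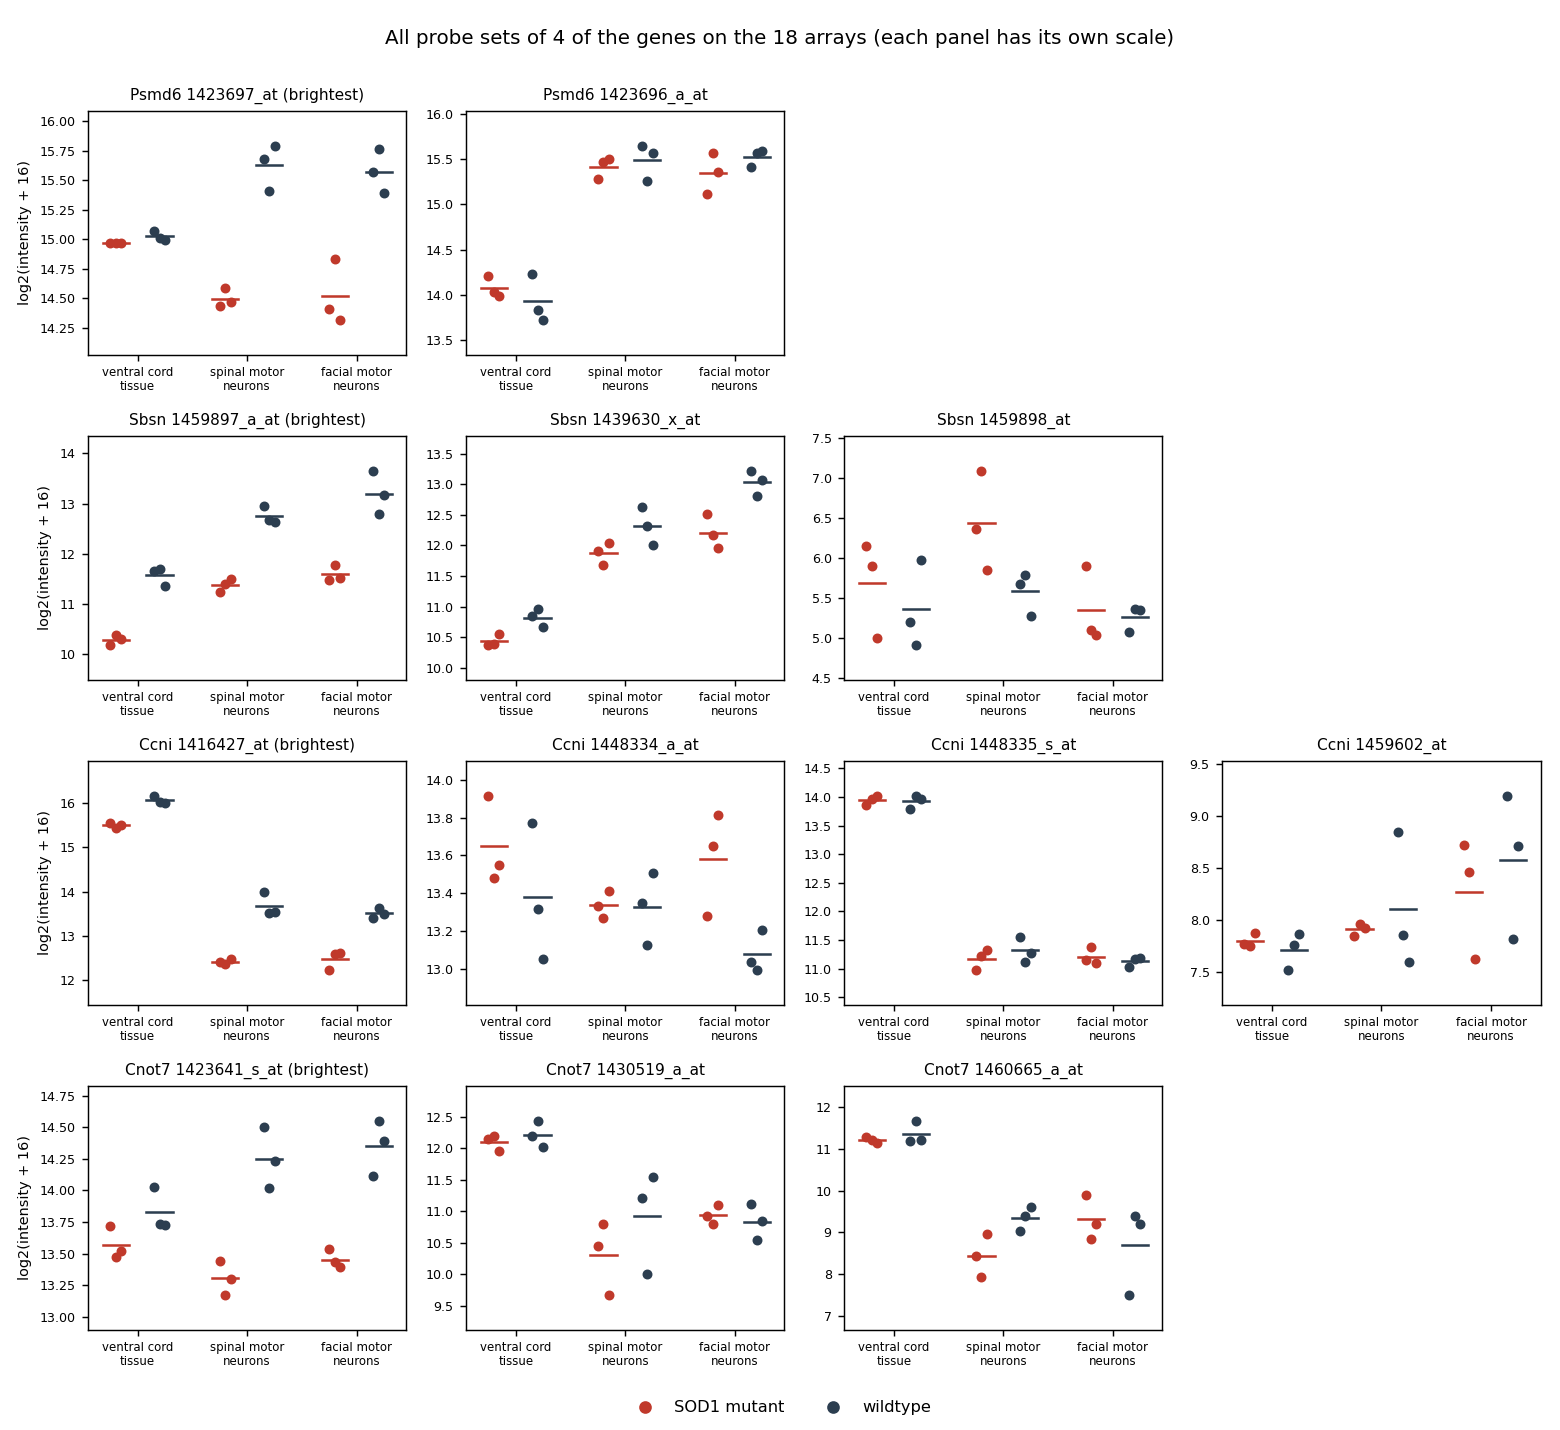
Every probe set of Psmd6, Sbsn, Ccni and Cnot7 on the 18 arrays, as log2(intensity + 16), with the brightest probe set of each gene in the left column. Points are arrays and bars are means of 3, SOD1 mutants in red left of wildtype in dark blue, with a scale of its own in each panel. Mutant points lie below wildtype points in all 3 kinds in the left column, while Psmd6 1423696_a_at and Ccni 1448335_s_at overlap in every kind.

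Seen together, the 26 other probe sets had median differences of -0.00 in tissue, -0.14 in spinal cells and 0.11 in facial cells, and 14, 17 and 6 of them were below zero. Mutants were lower without overlap in 2, 1 and 1 of them, and higher without overlap in 0, 2 and 3. None was lower without overlap in all 3 kinds. Counting only the 19 at or above the 40th percentile (7.65) leaves medians of -0.00, -0.15 and 0.11. The counts without overlap lie near the shares of the whole array given above. As background, Affymetrix marks with _s_at or _x_at probe sets whose probes match more than one transcript or gene, and with _a_at those shared by transcripts of 1 gene. The brightest probe sets of Ep400, Cnot7 and Far1 carry _s_at and the second of Sbsn _x_at, so for these a share of the signal from related transcripts was not tested.

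**Figure D3:**
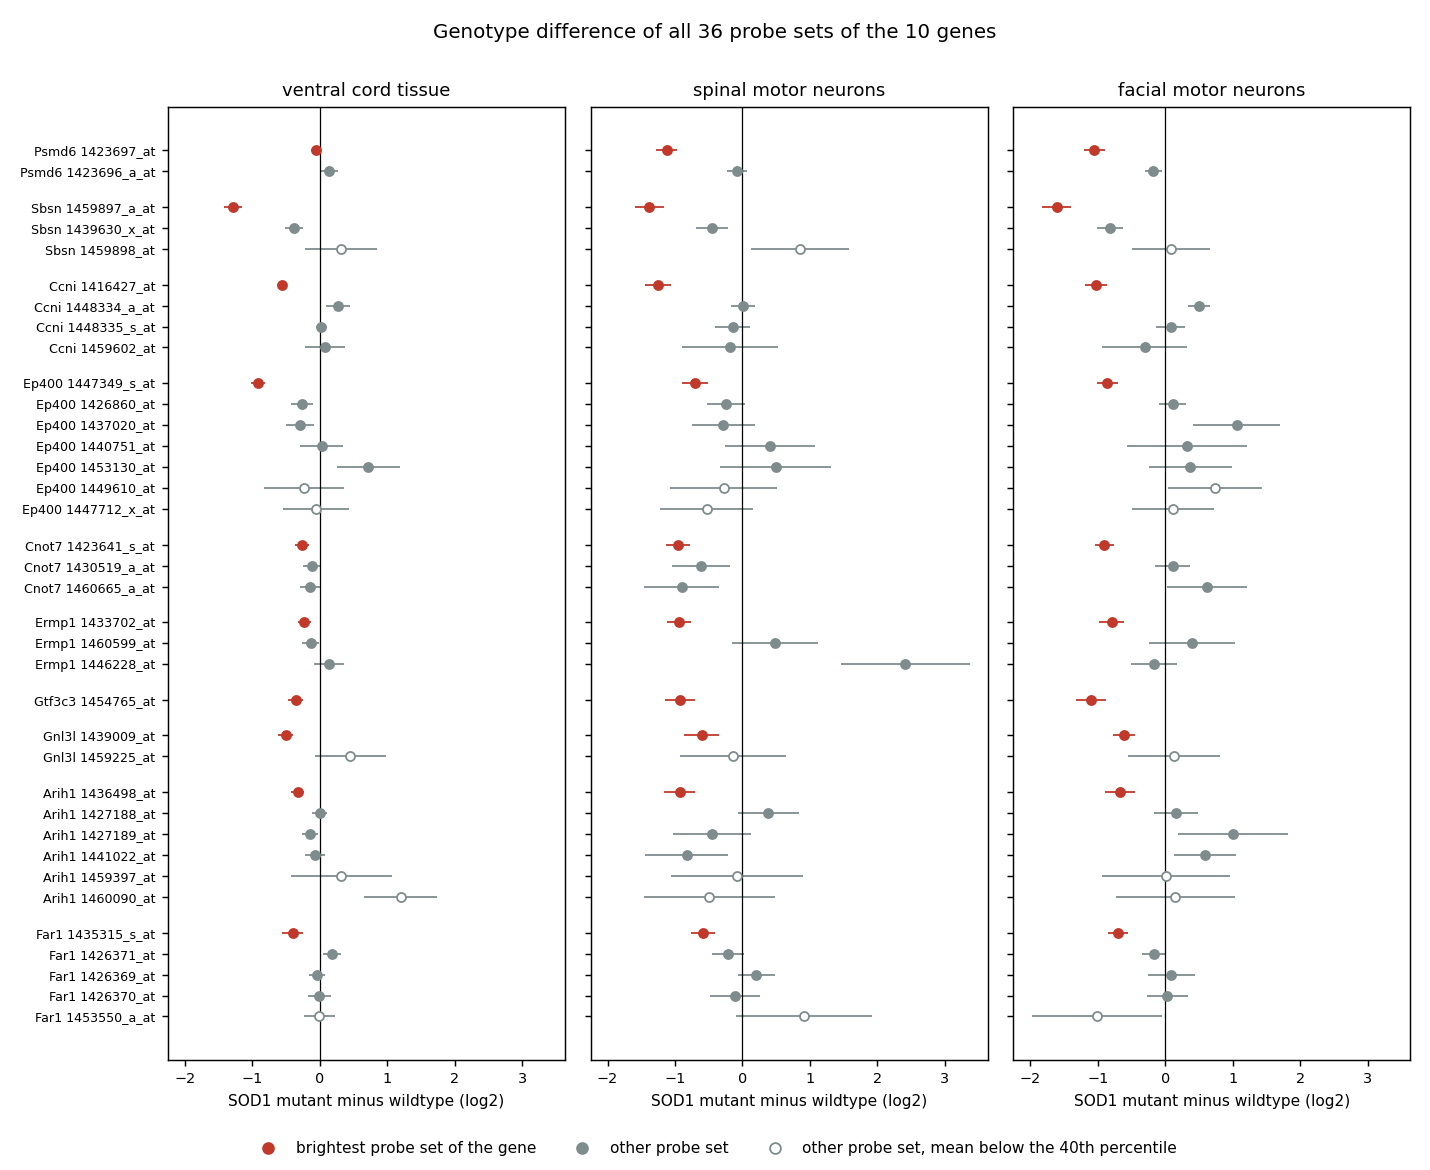
Genotype difference (SOD1 mutant minus wildtype, log2) of all 36 probe sets in the 3 kinds of sample, with limma's standard error as bars. The brightest probe set of each gene is red, the others grey, and open symbols mark means below the 40th percentile. Every red point lies left of zero, by the choice of the genes, and the grey points have medians of -0.00, -0.14 and 0.11 from left to right.

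Levels in motor neurons against tissue, averaged over both genotypes, did not enter the choice of the genes and were tested with limma over 12 arrays. Of the 36 probe sets, 7 were higher and 13 lower in spinal motor neurons than in tissue at an adjusted p under 0.05, and 10 were higher and 14 lower in facial motor neurons. On the whole array 24.1% were higher and 21.9% lower in spinal, and 26.2% higher and 22.7% lower in facial motor neurons. The scaling matters here. The median difference of all probe sets was 0.16 in spinal and 0.17 in facial motor neurons after quantile normalization, but 0.50 and 0.46 when the arrays were only set to a common median. The brightest probe sets of the 10 genes moved further: their median was 0.07 and 0.13 after quantile normalization and 1.21 and 1.23 with a common median. The split of the 36 then became 14 higher and 10 lower in spinal, and 16 higher and 12 lower in facial motor neurons. The whole array shifted the same way with a common median. Of 45037 probe sets, 15549 were then higher and 7508 lower in spinal, and 15941 higher and 7891 lower in facial motor neurons.

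The brightest probe sets of 4 genes were higher in both kinds of motor neuron than in tissue under both scalings. Sbsn 1459897_a_at averaged 12.07 in spinal motor neurons and 10.93 in tissue, higher by 1.13 (SE 0.13, limma adjusted p = 1.66e-06), and 12.40 in facial motor neurons, higher by 1.46 (SE 0.14, adjusted p = 3.43e-07). Gtf3c3 was higher by 1.03 in spinal (SE 0.13) and 0.73 in facial cells (SE 0.14), Ep400 by 0.82 (SE 0.11) and 0.66 (SE 0.09), and Far1 by 0.55 (SE 0.12) and 0.34 (SE 0.11), and with a common median all stood between 1.21 and 1.87. Their other probe sets did not all do so. Sbsn 1439630_x_at was higher in both under both scalings (1.46 in spinal and 1.99 in facial cells), but Far1 1426369_at was lower in both under both (-1.01 and -1.24, or -0.46 and -0.64 with a common median), the dim Far1 1453550_a_at stood at -2.76 and -3.42, and Ep400 1426860_at at -0.01 and -0.16. With the actin ratio in the fit, which nearly coincides with the kind of sample, none of these calls remained, Gtf3c3 turned to -1.04 in spinal and -2.53 in facial cells, and Far1 1435315_s_at turned to -0.35 in facial cells. Ccni went the other way under both: 1416427_at averaged 13.05 in spinal cells, 13.001 in facial cells and 15.77 in tissue, differences of -2.72 (SE 0.09) and -2.77 (SE 0.08), or -1.52 and -1.54 with a common median, and both calls were lost with the actin ratio in the fit. For Psmd6, Cnot7 and Gnl3l, and for the spinal differences of Ermp1 and Arih1, the call changed with the scaling. Psmd6 1423697_at averaged 15.06 in spinal cells, 15.05 in facial cells and 14.998 in tissue, differences of 0.06 (SE 0.08, adjusted p = 0.541) and 0.05 (SE 0.09, adjusted p = 0.672), but 1.33 and 1.401 with a common median. These means join opposite differences: spinal cells were at -0.47 relative to tissue in mutants and at 0.60 in wildtype, and facial cells at -0.45 in mutants and at 0.55 in wildtype, which restates the genotype difference by which the gene was chosen. Cnot7 stood at 0.08 and 0.20, or 1.08 and 1.25 with a common median, with spinal cells at -0.27 in mutants and 0.43 in wildtype and facial cells at -0.12 in mutants and 0.53 in wildtype. Ermp1 stood at -1.27 in spinal and -1.93 in facial cells, or -0.21 and -0.89 with a common median. Arih1 stood at -0.98 and -1.27, or -0.18 and -0.45 with a common median. With a common median neither spinal difference passed the test, while both facial ones did (adjusted p = 4.86e-06 for Ermp1 and 0.00842 for Arih1). Gnl3l stood at -0.97 and -0.59, against -0.05 and 0.41 with a common median, so its facial difference turned round.

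**Figure D4:**
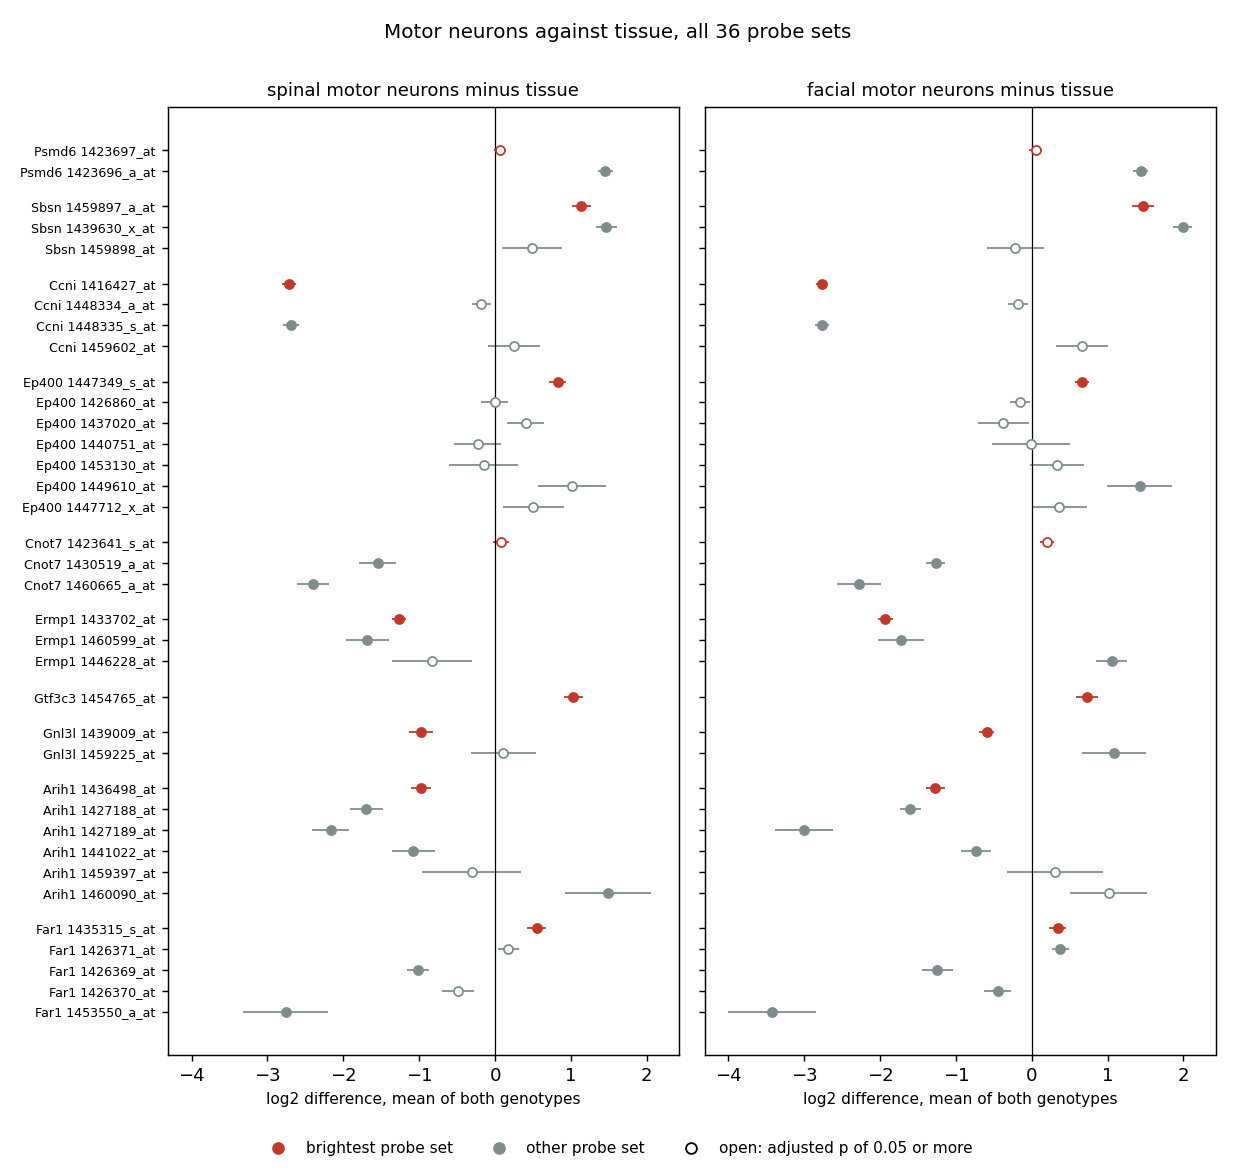
Difference between motor neurons and tissue (log2, mean of both genotypes after quantile normalization) for all 36 probe sets, with limma's standard error. Brightest probe sets are red, others grey, and open symbols did not reach an adjusted p under 0.05. Probe sets of 1 gene can lie far apart, such as Ccni 1416427_at at -2.72 and 1448334_a_at at -0.18 in spinal motor neurons.

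Between the kinds of motor neuron little differed: of the 36 probe sets 1 was higher and 2 lower in spinal than in facial cells, where the whole array had 3.12% higher and 2.95% lower. Ermp1 1433702_at averaged 13.19 in spinal and 12.52 in facial cells, higher by 0.66 (SE 0.13, limma adjusted p = 0.00411), and kept this call with each array left out in turn (adjusted p up to 0.0167), but not without the trend in limma's variance (adjusted p = 0.0683). Ermp1 1446228_at (-1.89, adjusted p = 0.0359) and Sbsn 1439630_x_at (-0.53, adjusted p = 0.048) were lower in spinal cells. Both lost the call with 1 array left out (adjusted p up to 0.0914 and 0.123).

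Whether probe sets of 1 gene moved alike was then tested within arrays. A shift of a whole array cancels in a ratio of probe sets, but the ratios still changed with the scaling, as given below. For 8 genes with a second probe set above the 40th percentile, the log2 ratio of the brightest to the next brightest was compared between kinds of sample with an exact permutation test within genotype (two-sided, 400 arrangements, smallest p 0.005, Benjamini-Hochberg over 24 tests). The ratio differed in 11 of 24 tests: 6 of 8 for spinal motor neurons against tissue, 5 of 8 for facial motor neurons against tissue and 0 of 8 between spinal and facial cells. Ratios of other genes were not tested, so these counts do not mark the 8 genes off from the rest of the array. In Ccni it changed by -2.54 in spinal and -2.58 in facial motor neurons relative to tissue, and in Psmd6 by -1.39 in each (adjusted p = 0.012 for each, exact permutation). In Cnot7 it rose by 1.63 and 1.47, in Ep400 it rose by 0.83 and 0.82, and in Sbsn it changed by -0.33 and -0.53 (adjusted p = 0.012 for each, exact permutation). In Arih1 it rose by 0.72 in spinal motor neurons (adjusted p = 0.0218, exact permutation) and stood at 0.33 in facial ones (adjusted p = 0.129). In Ermp1 and Far1 no test passed, with adjusted p of 0.05 or more, but their ratios moved with the scaling. With a common median Ermp1 1433702_at stood at -0.21 and 1460599_at at -1.565 in spinal cells relative to tissue. After quantile normalization they stood at -1.27 and -1.68. In facial cells they stood at -0.89 and -1.65 with a common median and at -1.93 and -1.72 otherwise, so that ratio change turned round. With a common median 15 of the 24 tests passed. The contrast of motor neurons with tissue runs along with the actin ratio of 25.3 to 74.4 in motor neurons against 1.56 to 1.78 in tissue, and kind of sample and RNA reach cannot be told apart.

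The partners of these genes were then read from 9 companion lists of 94 genes, 88 of them measured and each represented by its brightest probe set. In limma none of the 88 passed at an adjusted p under 0.05 between genotypes in any kind of sample, where the whole array had 0.0777% called in tissue (35 probe sets), 0.0377% in spinal (17) and 0.0% in facial motor neurons (0). At an unadjusted p under 0.05 there were 7 list genes in tissue (0 higher, 7 lower), 7 in spinal cells (4 higher, 3 lower) and 21 in facial cells (5 higher, 16 lower), of 88 in each. On the whole array 6.96%, 7.1% and 12.4% were at that level (3133, 3199 and 5571 probe sets). That share includes dim probe sets, whereas each list gene stands for its brightest one. Among the 27022 probe sets kept by a filter at the 40th percentile, 2126, 2108 and 4236 were at that level. Directions at that level were not counted for the whole array. The directions of all 88 were 41 higher and 47 lower, 46 and 42, and 39 and 49.

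Around Psmd6, 17 measured subunits of the proteasome regulatory particle had median differences of -0.03, -0.00 and -0.05 in tissue, spinal and facial cells. Psmc6, an ATPase of its base, stood at -0.19 (SE 0.08), -0.47 (SE 0.17) and -0.43 (SE 0.13), Psmd11, a lid subunit, at 0.18 in tissue and 0.48 in spinal cells, and Psmd14, the deubiquitinase of the lid, at -0.33 in facial cells. Of the ubiquitin partners of Arih1, the scaffold Cul1 had the smallest p of all lists in facial cells, at -0.69 (SE 0.15, unadjusted p = 0.000536, adjusted p = 0.124), but stood at 0.32 in spinal cells, where mutants were higher without overlap. Cul2 stood at -0.25 in tissue and -0.38 in spinal cells, Cul3 at 0.17 in tissue, and Nedd8, the modifier that activates cullins, at 0.43 in facial cells. Around Cnot7, 9 members of CCR4-NOT had medians of -0.06, 0.17 and 0.01, with Cnot3 at -0.80 in tissue and 0.67 in spinal cells, Cnot10 at -0.18 in tissue, Cnot6l at 0.44 in spinal cells, and Cnot2 at -0.29 and Cnot9 at 0.58 in facial cells. Of 15 members of the TIP60 complex around Ep400, 12 were below zero in tissue and 13 above zero in spinal cells, with medians of -0.10, 0.16 and 0.11, and none passed. Ruvbl1, an ATPase of that complex, stood at -0.28 in tissue (SE 0.09) and Mrgbp at -0.36. In spinal cells Trrap stood at 0.65 and Meaf6 at 0.43, and in facial cells the paralogs Epc1 and Epc2 stood at -0.52 and 0.76.

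The RNA polymerase III factors around Gtf3c3 had medians of 0.03, -0.03 and 0.13 over 9 genes, with Gtf3a, which binds 5S rRNA genes, at 0.91 in facial cells (SE 0.25) and Gtf3c6 at -0.54 in spinal and -0.40 in facial cells. Gtf3c1 stood at -0.22 and Gtf3c4 at 0.15 in tissue, and Bdp1 at -0.28 in spinal cells. Of 4 GTPases related to Gnl3l all were below zero in spinal and facial cells, led by Gnl2 at -0.72 (SE 0.20) and Gnl3 (nucleostemin) at -0.62 (SE 0.19) in facial cells, and Gnl3 stood at 0.16 in tissue and -0.14 in spinal cells. Lsg1 stood at 0.16 in tissue and -0.55 in spinal cells. Among 13 other cyclins, Ccnd1 stood at 0.88 in spinal (SE 0.22) and -0.46 in facial cells (SE 0.20), and Ccnd2 at 1.16 in spinal cells (SE 0.48), with overlap, and at -0.87 in facial cells, where mutants were lower without overlap. Ccnl2 stood at -0.43 and Ccnc at -0.25 in tissue, and Ccnl1 at -0.66 in facial cells. The 6 ether lipid genes around Far1 had medians of -0.05, 0.22 and 0.24, with its paralog Far2 at -0.45 in tissue (SE 0.20). Pex7, a peroxisomal import receptor, stood at 0.10, -0.29 and -0.21, Selenoi at 0.40 in spinal cells, and Gnpat, which starts ether lipid synthesis, at 0.40 in facial cells. The 8 epidermal genes listed with Sbsn had medians of 0.04, -0.39 and -0.14, with Lor (loricrin) at -0.26, -0.76 and -0.71, Krtdap at 0.90 in tissue, Ivl (involucrin) at -1.17 in spinal cells, and Krt10 at -0.50 in facial cells.

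The genes around each member on its chromosome were examined in the same way. Of 100 neighbours, the 5 nearest measured genes on each side, mutants were lower without overlap in 6 in tissue, 4 in spinal cells and 9 in facial cells, and higher without overlap in 11, 8 and 9. None was lower in all 3 kinds and none higher in all 3. The shares on the whole array were those given above for single kinds. In all 3 kinds, 45 of the 45037 probe sets were lower and 40 higher without overlap. At so small a share none among 100 neighbours says nothing about these loci.

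The 5 other genes most like the mean of the 10 brightest probe sets were found by Pearson correlation over 18 arrays, with values centred within each kind of sample. Each gene is represented here by its probe set with the highest correlation, which need not be its brightest. The genotype difference by which the 10 were chosen is part of this measure, so a genotype difference in these genes is fixed by it and is a description. They were Mrpl15 (r = 0.93), a mitochondrial ribosomal protein, Park7 (0.92), also known as DJ-1, a redox-sensitive protein mutated in an inherited form of parkinsonism, Pcdh11x (0.91), a protocadherin, Eif1ax (0.91), a translation initiation factor, and Wdr11 (0.91). Mrpl15 1434970_a_at differed by -0.59, -0.66 and -0.67 in tissue, spinal and facial cells, and Pcdh11x 1436449_at by -0.65, -1.28 and -2.02, both without overlap in each kind. Eif1ax 1437071_at differed by -0.32, -0.72 and -0.53, and Wdr11 1452820_at by -0.18, -0.31 and -0.61, likewise without overlap in each kind. Park7 1456194_a_at averaged 15.61 in mutant and 16.25 in wildtype spinal cells, a difference of -0.64, and 15.60 in mutant and 16.27 in wildtype facial cells, a difference of -0.67, with -0.07 and overlap in tissue. The other Park7 probe set, 1416526_a_at, stood at 0.01, -0.11 and -0.12, and the other of Pcdh11x, 1438889_at, at -0.10, -0.58 and -0.07. Mrpl15 1434971_x_at stood at -0.42, -0.36 and -0.38, and 1435232_x_at at -0.03, -0.25 and -0.23, and Eif1ax 1419736_a_at at 0.13, -0.26 and -0.31. All of these were brighter, by the mean over the 18 arrays, than the probe set of their gene chosen by correlation. Of the 11 other probe sets of these genes, 6 were below zero in tissue, 11 in spinal and 8 in facial cells.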

How the data were processed

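The authors deposited 1 table of linear intensities that covers 45101 probe sets and 18 arrays, and how they were made from the scans is not given in the sources used here. In the deposited intensity values the mean trimmed by 2% at each end was 2500 on every array, and the median was 286 to 341 on motor neuron and 533 to 583 on tissue arrays.

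Values were set to log2(intensity + 16) and quantile normalized. After 64 control probe sets were left out, 45037 were fitted, with no filter on dim ones, by limma 3.58.1 in R 4.3.3 (lmFit, eBayes with a trend) and Benjamini-Hochberg adjustment at 0.05. Genotypes were compared over 6 arrays in each kind of sample, and kinds over 12 arrays with 4 group means. Python 3.11.15 did the rest. Arrays have no read depth, and 3 per group limit the precision.

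Names came from the platform annotation: 34945 probe sets had 1 symbol, 932 several and 9160 none, and 34741 of the first matched the RefSeq table of GRCm38.p6 by gene ID. The text names every probe set of the 10 genes, in each companion list the 2 genes with the smallest p per genotype comparison, Sod1, the 5 genes most like the members, and 5 neighbours a side as counts. The members and lists were chosen with earlier results of these data known. The test of probe set ratios was chosen after seeing the data. Arrays were not paired by replicate number. Deviations of arrays with the same number correlated weakly (-0.013 to 0.175 between genotypes, mostly above zero, and -0.036 to 0.01 between kinds). In spinal cells the same-number values between genotypes (0.020, 0.066 and 0.062) all lay above those of different numbers (-0.059 to -0.0003). A shared replicate effect between genotypes is thus not excluded, and calls with a replicate block are given below.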

Additional observations from a re-analysis of the deposited data

How the results depend on the processing

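All 480 alternative values of the 30 genotype differences of the brightest probe sets kept their sign, and 463 moved by less than 1 SD of the arrays. The alternatives were a common median, no normalization (chosen after seeing the data), pseudocounts of 1 and 64, a filter, no trend, all 18 arrays in 1 fit, a replicate block, the actin ratio, array weights and each array left out. The filter, no trend, 18-array fit and replicate block cannot move a difference, so those values were bound to stay. In the 180 values with an array left out, groups without overlap cannot change sign. The genes were also chosen on these differences, so the kept signs are no test of them. With the actin ratio Psmd6 moved to -0.65 and Gtf3c3 to -0.55 in facial cells. The 7 probe sets lower without overlap in all 3 kinds became 9 with a common median and 7 to 8 with 1 array left out, and the 11 probe set ratios that differed between kinds became 15 with a common median and 11 to 12 with 1 array left out. No companion list gene passed in tissue under any setting. In spinal cells 1 passed with all 18 arrays (Ccnd1, with 0.386% of the whole array called) and 0 to 3 with 1 array left out, where 3 (Psmc6, Psmd1, Psmd11) needed wildtype replicate 2 out (1.37% called). In facial cells 2 passed with all 18 arrays (Cul1, Ccnl1, with 1.21% called), 17 with array weights (4506 probe sets called) and 0 to 3 with 1 array left out, where 3 (Psmc6, Gnl3, Cul1) needed mutant replicate 2 out (0.731% called). With 1 array left out the whole-array counts were 4 to 41 in tissue, 2 to 618 in spinal cells and 0 to 329 in facial cells.

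The 20 and 24 member probe sets called for spinal and facial motor neurons against tissue became 0 and 1 with the actin ratio, which nearly coincides with the kind of sample, and 19 and 22 with the replicate block. Of all 45037 probe sets, the actin ratio left 4 higher and 5 lower in spinal, and 319 higher and 398 lower in facial motor neurons. The replicate block left 10277 higher and 9531 lower in spinal, and 11009 higher and 9681 lower in facial motor neurons. The 3 called between spinal and facial cells became 0 without the trend, 1 with the replicate block, 1 with the actin ratio and 1 to 3 with 1 array left out, Ermp1 1433702_at being the one kept. The whole array had 1406 higher and 1327 lower in spinal than in facial cells. These became 465 and 403 without the trend, 994 and 928 with the replicate block, and 500 and 492 with the actin ratio. With the replicate block the genotype calls on the whole array were 91 in tissue, 39 in spinal and 7 in facial cells, against 35, 17 and 0, and no companion list gene passed. The whole-array genotype calls were 0, 0 and 0 without the trend, and 92, 0 and 0 with the actin ratio. Among differences past the threshold under at least 1 of the scalings, some turned round with a common median. They turned to 0.74 and 0.78 (Ccni 1448334_a_at) and 0.49 and 0.39 (Ep400 1426860_at) in spinal and facial cells against tissue, and to 0.41 for Gnl3l 1439009_at in facial cells. Of the differences against tissue called without the actin ratio, some turned round with it, none of them then past the threshold. In spinal cells these were Cnot7 1460665_a_at (0.26), Gtf3c3 1454765_at (-1.04), Gnl3l 1439009_at (0.060), Arih1 1436498_at (0.42), 1427188_at (1.48) and 1460090_at (-10.73). In facial cells they were Cnot7 1460665_a_at (1.42), Gtf3c3 1454765_at (-2.53), Gnl3l 1439009_at (0.92) and 1459225_at (-3.05), and Far1 1435315_s_at (-0.35) and 1426371_at (-1.25). Differences that were not called also changed sign and are not listed. The cause of these turns was not tested.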
